A study of Mus musculus with 14 samples.

Results

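The comparison was between liver tumours that carried a set of strong foreign antigens and tumours that did not, when every tumour also received a plasmid for Aoah. It took 7 of the 14 tumours of the series: 3 labelled LucOS-A and 4 labelled Luc-A. All came from C57BL/6 mice, and the driver in each was MYC with luciferase under the EF1a promoter, inserted by the SB100 transposase after hydrodynamic injection into the tail vein. LucOS tumours additionally carried OVA, SIN and SIY (together called OS), and Luc tumours lacked them; the tumours are called here LucOS Aoah 1 to 3 and Luc Aoah 1 to 4. The other 7 tumours of the series, 4 Luc and 3 LucOS, received the empty vector in place of Aoah and are used only to show where the antigen comparison differed. A truncated beta-catenin plasmid is named in the protocols without being tied to particular tumours, and anti-PD1 dosing is described with no tumour assigned to it. Sex and age are not given. Tumours are numbered, but separate animals are not stated, so p-values measure the spread between these samples, which may be technical.

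OVA, SIN and SIY are model antigens. The SIN and SIY peptides are displayed on MHC class I molecules, where CD8 T cells can recognise them. Activated T cells and NK cells release interferon gamma, which acts on neighbouring cells and induces guanylate-binding proteins, immunity-related GTPases, the immunoproteasome, MHC molecules and the chemokines Cxcl9 and Cxcl10. Aoah encodes acyloxyacyl hydrolase, a lipase that removes fatty acyl chains from bacterial lipopolysaccharide. In the liver, hepatocytes make most of the secreted proteins and drug-metabolising enzymes, and in mice they also make the major urinary proteins (Mup), small pheromone carriers that depend on growth hormone and are more abundant in males.

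Levels are in TPM, the share of all transcripts scaled to a fixed total, and differences are LucOS minus Luc on the log2(TPM + 1) scale, which understates changes of genes at low TPM. TPM keeps no sequencing depth, so no counting error could be given. The 7 tumours had 11501 to 12836 genes at 1 TPM or more. Pearson correlations across genes were 0.906 to 0.982 within groups and 0.880 to 0.979 between them, so the groups did not stand apart as wholes. LucOS Aoah 3 held 16.6% of its TPM in mitochondrially encoded genes, against 3.41% to 6.45% in the other 6 tumours. Luc Aoah 3 held 9.19% in small noncoding genes, against 1.065% to 2.37%. Along the first principal component, which held 51% of the variance, Luc Aoah 3 lay at 81.6 and LucOS Aoah 3 at -44.4. Luc Aoah 2 lay close to the latter, at -42.4. List medians that LucOS Aoah 3, or Luc Aoah 3 and LucOS Aoah 3 together, moved are also given without them. Each difference in a bulk tumour can come from fewer cells of a type or from less RNA per cell, and these cannot be told apart.

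Aoah was present in every tumour of the comparison. It was 503.5, 685.2, 283.7 and 518.6 TPM in Luc Aoah 1 to 4 and 576, 588.9 and 931.1 TPM in LucOS Aoah 1 to 3. The groups overlapped, and the log2 difference was 0.52 with a standard error (SE) of 1.02 (limma adjusted p = 0.943). The vector tumours held 0.74 to 54.76 TPM, highest in Luc vector 3 and next, at 18.57 TPM, in Luc vector 1. The SE and p of Aoah came from a fit shared with these vector tumours, so they include that wide spread. They do not measure the spread of Aoah among the compared tumours alone.

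Among 13466 genes kept, 11 differed between LucOS and Luc Aoah tumours at an adjusted p under 0.05 in limma (0.0817% of genes), and all 11 fell in LucOS. None rose. At an unadjusted p under 0.05, limma gave 944 genes (7.01%), of which 367 were higher (2.73%) and 577 lower (4.28%). In all 11, every LucOS tumour was below every Luc tumour, a pattern that 711 of all genes shared (5.28%). Picking genes by p favours such separation. In the other direction, 296 genes had every LucOS tumour above every Luc tumour (2.2%). Counts in the gene lists below are read against these shares. The count of 11 depended on single tumours: it was 1 without LucOS Aoah 1, 2 without LucOS Aoah 2, 3 without Luc Aoah 3, 5 without Luc Aoah 2 and 7 without Luc Aoah 4. A fit on the 7 Aoah tumours alone called 2.

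**Figure D1:**
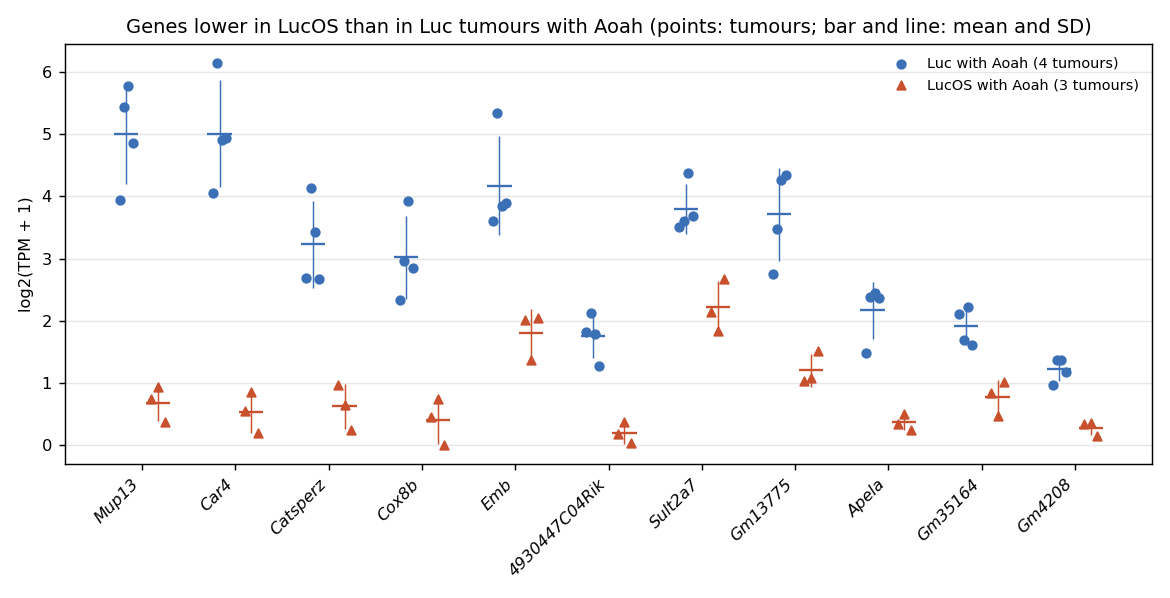
Level of the 11 genes that fell in LucOS, as log2(TPM + 1) on the vertical axis. Each point is a tumour, circles for the 4 Luc and triangles for the 3 LucOS tumours with Aoah; the horizontal bar is the group mean and the vertical line its SD. In every gene all triangles lie below all circles, with the widest gaps in Mup13 and Car4.

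Mup13, a major urinary protein gene, was the gene with the smallest p. It stood at 14.42, 42.57, 53.5 and 27.95 TPM in Luc Aoah 1 to 4 and at 0.67, 0.92 and 0.29 TPM in LucOS Aoah 1 to 3. No LucOS tumour reached 1 TPM, and the groups did not overlap. Group means were 34.6 ± 17.1 TPM (SD, n = 4) and 0.627 ± 0.317 TPM (SD, n = 3), a 55.2-fold difference, and the log2 difference was -4.32 (SE 0.48, limma adjusted p = 0.00303). Mup13 stayed past the threshold when any 1 of the 7 tumours was left out. Its limma adjusted p ran from 0.00125 to 0.0729 over 16 alternative settings, and with a pseudocount of 0.1 it did not pass.

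Mup genes are close copies of each other, so reads may be split between them and each single Mup value is uncertain. Mup3, far more abundant, was 1380, 940.6, 1172 and 1654 TPM in the Luc tumours and 321.5, 293.1 and 662.7 TPM in the LucOS tumours. Its groups did not overlap, but the log2 difference of -1.66 did not pass (limma adjusted p = 0.164). Mup19, which is named here after its values were seen, was 44.26 to 163.7 TPM in Luc and 4.77 to 11.12 TPM in LucOS (-3.33, limma adjusted p = 0.137).

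The list of major urinary proteins and male-biased liver genes had 18 of its 20 members above the low filter. Mup13 was the 1 member that passed, 17 of 18 had a negative difference, and the list median was -0.57 against -0.01 for all genes. At an unadjusted p under 0.05 in limma, 7 were lower (4.28% of all genes). In 6 of the 18 every LucOS tumour was below every Luc tumour (5.28% of all genes): Mup3, Mup11, Mup13, Mup15, Mup17 and Elovl3, a fatty acid elongase. The abundant Mup20, in contrast, overlapped, at 1084 to 2540 TPM in Luc and 790.8 to 2060 TPM in LucOS. Summed over the list, Luc tumours held 2498 to 4384 TPM and LucOS tumours 1391 to 3098 TPM. Xist, the RNA that coats the inactive X chromosome of female cells, was looked at after these values were seen: it was 7.84 to 16.42 TPM in Luc and 12.92 to 69.69 TPM in LucOS tumours, so no tumour lacked it. The female-biased liver list had a median of -0.22 (-0.41 without LucOS Aoah 3), and 0 of its 16 members passed limma's adjusted threshold (2 lower at an unadjusted p under 0.05).

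Sult2a7, a sulfotransferase of steroids and bile acids, also fell. It was 10.33, 11.12, 19.87 and 11.91 TPM in Luc and 3.43, 2.56 and 5.39 TPM in LucOS tumours (-1.58, SE 0.26, limma adjusted p = 0.0369). In vector tumours it was 0 to 0.46 TPM, near the floor, which adds little spread to the shared SE. Sult2a7 did not pass in a fit of the 7 Aoah tumours alone. Ugt3a1, a glycosyltransferase that conjugates small molecules, was 7.94 to 11.83 TPM against 1.35 to 4.93 TPM, without overlap, and stood just outside the threshold (-1.56, limma adjusted p = 0.0641). Both belong to families of near copies whose reads may be split. Sult2a8, which was 90.79 to 258.6 TPM in Luc tumours, was 28.81 to 94.67 TPM in LucOS tumours (-1.63, limma adjusted p = 0.325). In the list of conjugation enzymes and carboxylesterases, which holds Ugt3a1 and Sult2a8 but not Sult2a7, 0 of 30 members passed in limma, 5 were lower and none higher at an unadjusted p under 0.05, and 27 of 30 differences were negative (median -0.53, and -0.83 without LucOS Aoah 3). Of all genes, 4.28% were lower at that threshold.

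The largest fall of the 11 was in Car4, carbonic anhydrase 4, a membrane-bound enzyme that interconverts carbon dioxide and bicarbonate. It was 15.6, 69.75, 28.96 and 29.63 TPM in Luc and 0.46, 0.81 and 0.14 TPM in LucOS tumours (-4.48, SE 0.57, limma adjusted p = 0.00864). The 76.6-fold gap between the means left no overlap. It did not pass without LucOS Aoah 1, nor without Luc Aoah 3 and LucOS Aoah 3 together, and its limma adjusted p ran from 0.00700 to 0.0744 over 16 alternatives.

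Cox8b, a subunit of cytochrome c oxidase typical of muscle and brown fat, was 4.06, 6.81, 14.23 and 6.23 TPM in Luc and 0.37, 0.68 and 0 TPM in LucOS tumours (-2.62, SE 0.41, limma adjusted p = 0.0369). Fat cell genes were then looked at, and none passed. Adipoq, the fat hormone adiponectin, was 1.81, 8.06, 3.53 and 3.22 TPM in Luc and 0.03 TPM in each LucOS tumour (-2.19, limma adjusted p = 0.0894). It met the filter of 1 TPM only with the Luc Aoah tumours, where it was high, so the filter itself favoured a fall. Cidea, a lipid droplet protein, was 2.92, 23.24, 7.32 and 8.29 TPM against 0.72, 0.34 and 0.08 TPM (-2.77, limma adjusted p = 0.168). A list of 10 fat cell genes was written after these values were seen, so its counts are no test. In the table were 9, of which 5 passed the low filter and none passed in limma. Of the 5, 4 differences were negative. In limma 3 were lower at an unadjusted p under 0.05 (4.28% of all genes), and 3 did not overlap (5.28% of all genes). The summed level of the list was 115.01 to 159.43 TPM in Luc and 80.56 to 98.41 TPM in LucOS tumours. Ucp1, the defining gene of brown fat, was at 0 TPM in all 7. The part of fat cells in the fall of Cox8b was not tested.

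Catsperz, a component of the calcium channel of sperm tails, was 5.42, 16.56, 9.75 and 5.4 TPM in Luc and 0.96, 0.57 and 0.19 TPM in LucOS tumours (-2.61, SE 0.35, limma adjusted p = 0.00981). Emb, embigin, a partner of lactate transporters at the cell surface, was 11.19 to 39.7 TPM against 1.59 to 3.13 TPM (-2.36, limma adjusted p = 0.0369). Apela, a peptide hormone of the apelin receptor, was 1.79 to 4.48 TPM against 0.19 to 0.42 TPM (-1.80, limma adjusted p = 0.0369). The other 4 were predicted or uncharacterised transcripts that the naming rule leaves out and that are named here after their values were seen: 4930447C04Rik, Gm13775, Gm35164 and Gm4208, with log2 differences of -0.94 to -2.51 and limma adjusted p of 0.0369 to 0.0410. Cox8b, 4930447C04Rik, Gm35164 and Gm4208 met the filter of 1 TPM only with the Luc Aoah tumours, where they were high. For these the filter itself favoured a fall. Gm35164 was 0 TPM and Gm4208 was 0 to 0.23 TPM in the vector tumours, which adds little or no spread to the shared fit. Neither passed in a fit of the 7 Aoah tumours alone.

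These calls differed in how firmly they held. Over 16 alternative settings, Mup13 passed in 14, Car4 in 13 and Catsperz in 11, while Emb, Sult2a7, Cox8b and Gm13775 passed in 2 to 6. Apela, 4930447C04Rik, Gm35164 and Gm4208 each passed in 3 of the 15 settings that kept them. Leaving out LucOS Aoah 1 left Mup13 as the 1 gene called. The next 8 genes by p that were lower in LucOS did not pass: Kcnk4, a potassium channel, Ugt3a1, Adipoq, Serpinb1c, Scgb1c1, Cnmd, Cda, which deaminates cytidine, and Sftpc, a surfactant protein of lung. Their limma adjusted p were 0.0641 to 0.106. All 8 lay without overlap (5.28% of all genes), which picking by p in these same tumours favours. For Adipoq the filter of 1 TPM also favoured a fall.

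No gene rose at the adjusted threshold, and the 15 higher genes with the smallest p, predicted transcripts left aside, included interferon-induced, antigen presentation and neutrophil genes. Ubd, a ubiquitin-like modifier that marks proteins for the proteasome and is induced by interferon gamma, was 27.11, 37.01, 41.43 and 83.2 TPM in Luc and 224.5, 194.2 and 973.9 TPM in LucOS tumours. All 3 LucOS tumours were above all 4 Luc tumours, and LucOS Aoah 3 was highest. Means differed 9.84-fold, with a log2 difference of 2.99 (SE 0.63, limma adjusted p = 0.142).

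Psmb9, a catalytic subunit of the immunoproteasome, which cuts peptides for MHC class I, was 29.29, 39.23, 42.02 and 56.88 TPM against 99.94, 88.48 and 186.9 TPM (1.51, SE 0.35, limma adjusted p = 0.174). Cxcl9, a chemokine that draws activated T cells through Cxcr3, was 20.25, 33.54, 20.78 and 46.85 TPM against 105.4, 58.51 and 329.8 TPM (2.11, SE 0.56, limma adjusted p = 0.313). Cxcl10, which uses the same receptor, was 15.84, 17, 12.55 and 24.55 TPM against 52.8, 28.31 and 145.3 TPM (1.77, SE 0.49, limma adjusted p = 0.341). Neither Psmb9 nor either chemokine overlapped between groups, a pattern shown by 296 of all genes in this direction (2.2%). LucOS Aoah 3 was the highest tumour in each of the 3.

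The list of interferon-inducible GTPases and gamma response genes had 20 of 22 members above the low filter; Socs1 and Ido1 were below it. All 20 differences were positive, with a median of 1.27 against -0.01 for all genes; 0 passed in limma, and 17 had an unadjusted p under 0.05, where 2.73% of all genes were higher. In 6 every LucOS tumour was above every Luc tumour, among them Tgtp2, at 17.85 to 63.45 TPM against 67.49 to 226.8 TPM, and Ciita, the activator of MHC class II transcription, at 0.68 to 1.44 TPM against 1.56 to 7.2 TPM. Tgtp1 and Tgtp2 are near copies and may share reads. Without LucOS Aoah 3 the list median was 0.56.

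Promoters of 4 members of this list, none of which passed, are shown because interferon signals act through known sequence elements. The 250 bases before the annotated start are given 5′ to 3′ on the gene's strand, from RefSeq on GRCm38.p6, which is older than the mm39 build named for the deposited values. Capitals mark every match, on either strand, to TTCNNNGAA (the interferon gamma-activated site, read the same on both strands) or to the interferon-stimulated response element (a GAAA repeat with a short spacer); matches that overlap or adjoin run together.
Gbp7, chr3:142530086-142530335, plus strand: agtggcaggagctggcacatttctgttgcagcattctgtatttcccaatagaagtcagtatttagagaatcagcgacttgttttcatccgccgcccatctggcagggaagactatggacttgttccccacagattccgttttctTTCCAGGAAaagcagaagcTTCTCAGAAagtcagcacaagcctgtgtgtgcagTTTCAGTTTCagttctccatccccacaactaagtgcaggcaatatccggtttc
Tgtp1, chr11:48992247-48992496, minus strand: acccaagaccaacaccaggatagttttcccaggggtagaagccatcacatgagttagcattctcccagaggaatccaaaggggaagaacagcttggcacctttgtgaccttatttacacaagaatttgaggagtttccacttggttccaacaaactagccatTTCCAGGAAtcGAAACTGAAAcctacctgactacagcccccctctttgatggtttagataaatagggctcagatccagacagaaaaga
Cxcl10, chr5:92348890-92349139, minus strand: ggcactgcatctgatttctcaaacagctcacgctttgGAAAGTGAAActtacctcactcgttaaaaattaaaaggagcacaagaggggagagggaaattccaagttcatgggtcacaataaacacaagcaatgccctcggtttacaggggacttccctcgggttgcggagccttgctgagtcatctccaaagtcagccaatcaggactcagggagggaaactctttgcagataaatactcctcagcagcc
Cxcl9, chr5:92328080-92328329, minus strand: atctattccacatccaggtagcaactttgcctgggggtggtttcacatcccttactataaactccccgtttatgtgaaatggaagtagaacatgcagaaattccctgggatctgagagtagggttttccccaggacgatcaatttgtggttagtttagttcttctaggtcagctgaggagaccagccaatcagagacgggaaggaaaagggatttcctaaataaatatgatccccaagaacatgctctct
Gbp7 held 2 matches to the first motif and 1 to the second, Tgtp1 held 1 of each, Cxcl10 held 1 match to the second, and Cxcl9 held none of these letters in its window. Of 27025 genes with such a window, 8.13% held the first motif and 3.46% the second. A share over the interferon list is not given, since 14 of its 22 members had a window, too few for such a check. Gbp7, a guanylate-binding protein that helps attack the vacuoles of microbes inside cells, was 3.36, 4.73, 2.92 and 6.66 TPM in Luc and 10.63, 6.87 and 44.55 TPM in LucOS tumours (1.62, limma adjusted p = 0.414). Its groups did not overlap, but LucOS Aoah 2 lay just above Luc Aoah 4.

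MHC class II genes, which present peptides to CD4 T cells, had the highest median of the 48 lists with kept members, 1.41 over 8 members of 10 above the low filter. None passed in limma; 7 were higher at an unadjusted p under 0.05 (2.73% of all genes), and 6 lay without overlap (2.2% of all genes). H2-DMb1, a subunit of the peptide-loading factor, was 18.43, 22.7, 21.09 and 27.09 TPM in Luc and 49.83, 40.62 and 91.49 TPM in LucOS tumours (1.33, SE 0.35, limma adjusted p = 0.296). H2-Eb1, a class II beta chain, was 101.2 to 200.8 TPM against 228.8 to 883.2 TPM (1.54, limma adjusted p = 0.483). Without LucOS Aoah 3 the median was 0.98, and 0.80 without Luc Aoah 3 as well.

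In the MHC class I list all 16 members passed the low filter and had positive differences, with a median of 0.81. None passed in limma, 7 were higher at an unadjusted p under 0.05, and 5 did not overlap, read against the same 2.73% and 2.2% of all genes. Psmb8, another immunoproteasome subunit, was 52.02 to 82.41 TPM against 102.2 to 195.5 TPM (1.07, limma adjusted p = 0.378), and H2-Q7, a nonclassical class I gene with near copies, was 24.5 to 43.48 TPM against 54.71 to 116 TPM (1.07, limma adjusted p = 0.412). Nlrc5, the activator of class I transcription, was 2.49 to 5.1 TPM against 5.43 to 23.93 TPM (1.18, limma adjusted p = 0.635). The classical heavy chain H2-K1, which presents the SIN and SIY peptides, overlapped, at 214.5 to 681.2 TPM in Luc and 388.5 to 1503 TPM in LucOS tumours. Without LucOS Aoah 3 the list median was 0.36.

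The type I interferon list behaved differently when that tumour was left out. Its 19 kept members were all positive with a median of 0.66, and none passed in limma. At an unadjusted p under 0.05, 2 were higher in limma (2.73% of all genes). Without LucOS Aoah 3 the list median was -0.08. Mx2, an antiviral GTPase, was 0.39 to 1.43 TPM in Luc tumours and 1.31, 1.16 and 7.59 TPM in LucOS tumours, with overlap and the highest value in LucOS Aoah 3 (0.96, limma adjusted p = 0.671).

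**Figure D2:**
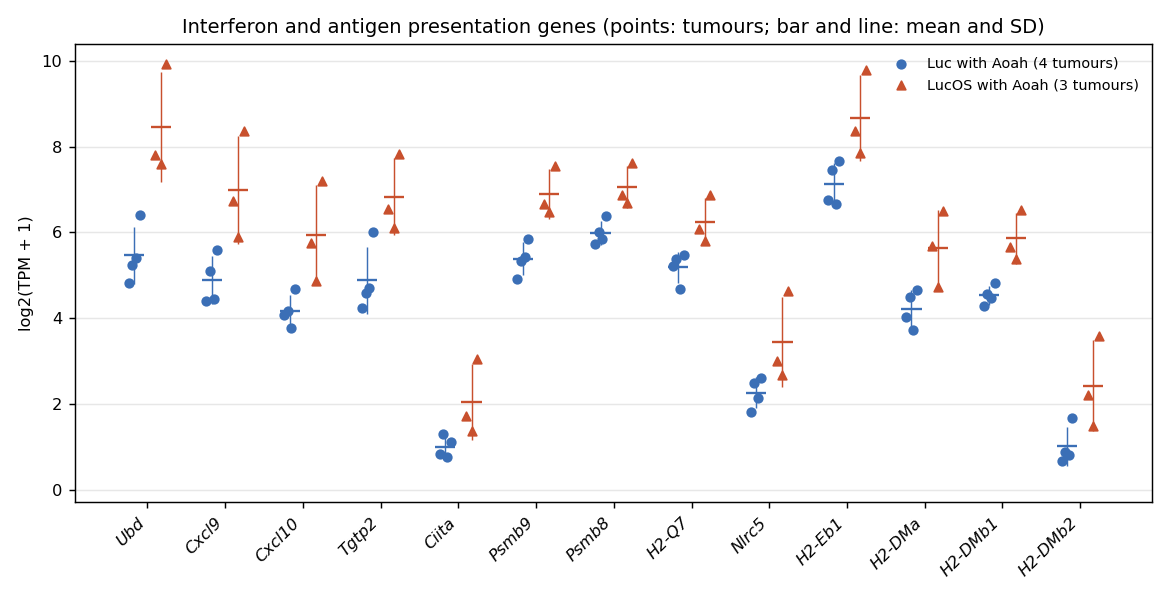
Level of 13 interferon and antigen presentation genes, as log2(TPM + 1) on the vertical axis, in the 4 Luc (circles) and 3 LucOS (triangles) tumours with Aoah; horizontal bars are means and vertical lines SD. The 3 LucOS tumours lie above the Luc tumours in all genes shown except H2-DMb2, and the uppermost triangle in each is LucOS Aoah 3.

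No receptor of antigen-experienced T cells passed the test. Lag3, which binds MHC class II, was 0.34, 0.42, 0.31 and 1.07 TPM in Luc and 1.46, 1.4 and 6.64 TPM in LucOS tumours (1.24, limma adjusted p = 0.341). Tigit was 0.17 to 0.74 TPM against 0.91 to 8.18 TPM (1.38, limma adjusted p = 0.378), and Pdcd1, which encodes PD-1, was 0.73 to 2.24 TPM against 2.37 to 9.1 TPM (1.21, limma adjusted p = 0.483). In the checkpoint list, 8 of 10 members were kept and 0 passed in limma. At an unadjusted p under 0.05, 4 were higher in limma (2.73% of all genes), and the same number did not overlap (2.2% of all genes). The median of 0.82 became 0.23 without LucOS Aoah 3.

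Genes that define T cells were closer between the groups. Cd3e, a chain of the T cell receptor complex, was 2.07, 4.93, 1.35 and 3.47 TPM in Luc and 4.74, 2.77 and 13.63 TPM in LucOS tumours (0.87, limma adjusted p = 0.722). Cd8a was 1.63 to 2.83 TPM against 3.8, 2.27 and 8.81 TPM (0.75, limma adjusted p = 0.710). The T cell list (14 of 16 kept) had a median of 0.16. For the CD8 and cytotoxicity list (12 of 15 kept) the median was 0.22. In both lists 0 members passed in limma and none lay without overlap. At an unadjusted p under 0.05, 1 and 2 were higher in limma (2.73% of all genes). Summed T cell list levels were 75.97 to 128.82 TPM in Luc and 74.24 to 192.1 TPM in LucOS tumours. Without LucOS Aoah 3 the medians were -0.06 and -0.01. The part of T cell number in the interferon and MHC differences was not tested.

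Neutrophil genes had a higher list median without LucOS Aoah 3 than with it. S100a8 and S100a9 encode the paired subunits of calprotectin, the main cytosolic protein of neutrophils. S100a8 was 47.59, 25.88, 35.01 and 22.87 TPM in Luc and 120.2, 221.3 and 58.6 TPM in LucOS tumours (1.85, SE 0.44, limma adjusted p = 0.230). S100a9 was 48.81, 26.98, 36.29 and 24.68 TPM against 123.2, 205.9 and 58.79 TPM (1.76, SE 0.46, limma adjusted p = 0.295). Both were without overlap and highest in LucOS Aoah 2. Ltf, the granule protein lactoferrin, was 0.12 to 0.84 TPM against 0.96 to 6.43 TPM (1.39, limma adjusted p = 0.641). All 11 kept members of 14 were positive and 0 passed in limma. At an unadjusted p under 0.05, 3 were higher in limma (2.73% of all genes), and 5 did not overlap (2.2% of all genes). The median was 0.85, and 1.35 without LucOS Aoah 3. The defining receptors Csf3r and Cxcr2 were low, at 0.35 to 2.66 TPM and 0.09 to 0.4 TPM.

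Of the 17 kept members of the macrophage list, 0 passed in limma, and 11 differences were positive and 6 negative. At an unadjusted p under 0.05, 2 were higher in limma (2.73% of all genes), and 2 did not overlap (2.2% of all genes). The median was 0.28, and -0.22 without LucOS Aoah 3. Those without overlap were Itgax and Cd9. Itgax, an integrin of dendritic cells and some macrophages, was 0.96 to 2.42 TPM in Luc and 2.65 to 10.19 TPM in LucOS tumours (1.14, limma adjusted p = 0.391), and Cd9, a membrane scaffold protein, was 95.37 to 131.8 TPM against 145.5 to 222.7 TPM (0.61, limma adjusted p = 0.523). Kupffer cell genes, which mark the resident macrophages of liver sinusoids, had 9 negative differences of 9, with a median of -0.54. Of these, 0 passed in limma. At an unadjusted p under 0.05 in limma, 1 was lower (4.28% of all genes): Folr2, a folate receptor. Folr2 was 13.3, 10.54, 7.92 and 11.62 TPM in Luc and 3.63, 2.68 and 8.15 TPM in LucOS tumours (-1.12, limma adjusted p = 0.628). Clec4f, the defining lectin of Kupffer cells, was 35.19 to 54.71 TPM in Luc and 18.74, 10.04 and 51.71 TPM in LucOS tumours, so LucOS Aoah 3 resembled Luc while the other 2 LucOS tumours were lower. Without LucOS Aoah 3 the median was -0.97. The summed list level was 184.23 to 276.69 TPM in Luc and 94.6 to 264.31 TPM in LucOS tumours.

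Chemokine genes showed no shared direction: 10 of 20 kept members were positive and the median was 0.00, or -0.23 without LucOS Aoah 3. Ccl8, which attracts monocytes, was the clearest, at 10.37 to 19.88 TPM in Luc and 34.66, 61.58 and 132.8 TPM in LucOS tumours (1.97, SE 0.59, limma adjusted p = 0.391), and Ccl3 was 0.59 to 2.33 TPM against 2.18 to 14.16 TPM (1.46, limma adjusted p = 0.391). None of the 20 passed in limma and 2 were higher at an unadjusted p under 0.05 (2.73% of all genes).

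No antibody heavy chain gene passed the test. Ighg1, the IgG1 constant region, was 0.31, 1.04, 0.19 and 0.51 TPM in Luc and 1.82, 1.51 and 27.71 TPM in LucOS tumours (1.99, SE 0.63, limma adjusted p = 0.472). Ighg2c was 15.43, 15.56, 11.65 and 31.93 TPM against 47.66, 36.32 and 40.66 TPM (1.20, SE 0.45, limma adjusted p = 0.615). Both lay without overlap (2.2% of all genes). Constant regions of IgG classes resemble each other, so reads may be split among them. The other members of the plasma cell list had no common direction. In all, 5 of 11 kept members were positive, the median was -0.11 and 0 passed in limma. At an unadjusted p under 0.05, 2 were higher in limma (2.73% of all genes). Without LucOS Aoah 3 the median was 0.39. Igha, the IgA constant region, was 32.3 to 97.99 TPM in Luc and 102.9, 58 and 14.26 TPM in LucOS tumours, lowest in LucOS Aoah 3. Ms4a1, a defining gene of B cells, was at most 0.47 TPM in every tumour.

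The deposited repertoire table gives 20 measures of receptor sequences assembled from the same RNA. Of these, 1 was higher (5%) and 1 lower (5%) in every LucOS Aoah tumour than in every Luc Aoah tumour. The IgG share of immunoglobulin heavy chain was 19.2, 12.8, 15.6 and 16.7% in Luc Aoah 1 to 4 and 33.0, 32.4 and 96.9% in LucOS Aoah 1 to 3, with means of 16.1 ± 2.65% (SD, n = 4) and 54.1 ± 37.1% (SD, n = 3). The IgA share was 80.4 to 87.2% in Luc and 67.0, 67.6 and 2.31% in LucOS tumours. IgG and IgA together made up nearly all of the heavy chain in each Aoah tumour. Their opposite shifts are therefore a single result, not separate ones. Both gave a two-sided exact permutation p of 0.0571, the smallest that 35 splits of 3 against 4 allow, and 0.571 after adjustment over the 20 measures, so this design could not reach 0.05. The denominators of the shares are not stated, and no interval was computed. In vector tumours the same shares overlapped between LucOS and Luc, and a test of that difference was not made. Heavy chain clones numbered 205, 23, 140 and 59 in Luc and 84, 4 and 16 in LucOS vector tumours. Among Aoah tumours they numbered 99 to 511, so some vector shares rest on far fewer clones.

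LucOS Aoah 3 stood apart in its B cell receptors. Its heavy chain clonality, which is 0 when all clones are equally large and 1 when a single clone holds all, was 0.478, against 0.0191 and 0.0285 in the other 2 LucOS and 0.0140 to 0.0282 in the Luc tumours. That value came from 135 heavy chain clones in 23 clonotypes. T cell receptor beta clones numbered 135, 77, 91 and 112 in Luc and 81, 87 and 157 in LucOS tumours, and the groups overlapped (two-sided exact permutation p = 0.914). In vector tumours the same numbers were 12, 5, 10 and 4 in Luc and 71, 17 and 29 in LucOS, without overlap. Clone numbers are not scaled to depth.

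**Figure D3:**
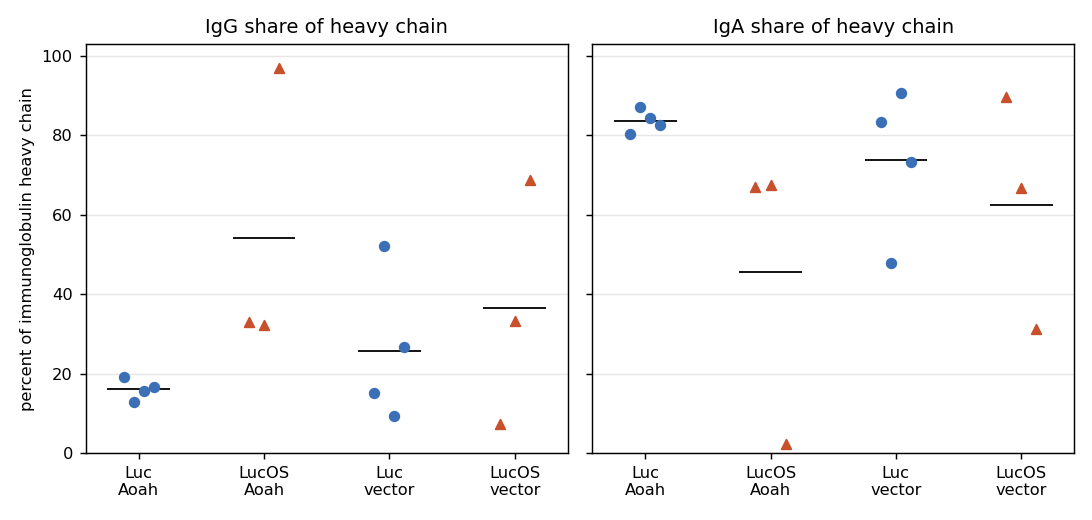
Share of immunoglobulin heavy chain assigned to IgG (left) and IgA (right), in percent on the vertical axis, for each tumour of the 4 groups; horizontal lines are group means. Among Aoah tumours the IgG share was 12.8 to 19.2% in Luc and 32.4 to 96.9% in LucOS, while the vector groups overlapped. Vector tumours held as few as 4 heavy chain clones.

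Mitochondrially encoded genes, the subunits of the respiratory chain made inside mitochondria, did not pass the test. All 13 had a positive difference with a median of 1.03; 0 passed in limma, 11 had an unadjusted p under 0.05 (2.73% of all genes higher), and 7 did not overlap (2.2%). Their summed level was 21310 to 54498 TPM in Luc, lowest in Luc Aoah 3, and 59142 to 159282 TPM in LucOS tumours. The gene mt-Nd5, a subunit of complex I, was 921.1, 1258, 401.7 and 954 TPM in Luc and 1723, 1620 and 6154 TPM in LucOS tumours (1.66, SE 0.54, limma adjusted p = 0.495). The gene mt-Nd1 was 1887 to 4996 TPM against 6454, 6621 and 13310 TPM (1.18, SE 0.39, limma adjusted p = 0.523). The median was 0.58 without LucOS Aoah 3 and 0.27 without Luc Aoah 3 and LucOS Aoah 3. The part of RNA quality was not tested.

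No hepatocyte identity gene passed the test. Albumin (Alb) was 6607, 6300, 2498 and 13330 TPM in Luc and 4399, 3620 and 9415 TPM in LucOS tumours, and the hepatocyte list of 19 kept genes had a median of -0.10 with 0 passing in limma and 0 at an unadjusted p under 0.05. That median was -0.39 without LucOS Aoah 3 and -0.68 without Luc Aoah 3 and LucOS Aoah 3. Of 36 kept cytochrome P450 genes of families 1 to 4, which metabolise drugs and steroids, 31 had a negative difference (51.1% of all genes did), 0 passed in limma and 4 were lower at an unadjusted p under 0.05 (4.28% of all genes). The median was -0.44, with -0.84 without LucOS Aoah 3 and -1.01 without Luc Aoah 3 and LucOS Aoah 3. Cyp3a41a was 37.85 to 157 TPM in Luc and 22.83 to 33.6 TPM in LucOS tumours (-1.18, limma adjusted p = 0.520), and Cyp2c29 was 88.5 to 329.9 TPM against 35.31 to 147.6 TPM (-1.38, limma adjusted p = 0.703). Both belong to clusters of similar genes whose reads may be split.

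Beta-catenin targets and pericentral genes, expressed by hepatocytes around the central vein, had a median of -0.44 over 18 kept genes, -0.66 without LucOS Aoah 3 and -0.92 without Luc Aoah 3 and LucOS Aoah 3. Slc1a2, a glutamate transporter, was 24.57, 25.68, 12.95 and 27.4 TPM in Luc and 6.65, 3.5 and 11.64 TPM in LucOS tumours (-1.59, SE 0.44, limma adjusted p = 0.341). Oat, ornithine aminotransferase, was 276.2 to 674.9 TPM against 128.9 to 311.7 TPM (-1.30, limma adjusted p = 0.543), and Glul, glutamine synthetase, was 224.8 to 602.6 TPM against 151.7 to 255.1 TPM (-0.94, limma adjusted p = 0.671). In this list 15 of 18 differences were negative, 0 passed in limma and 5 were lower at an unadjusted p under 0.05 (4.28% of all genes). Which tumours received the beta-catenin plasmid is not stated, so its part was not tested.

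Other liver functions differed in single genes, none of them past limma's adjusted threshold. Hsd3b7, an enzyme of bile acid synthesis, was 111.3 to 155.6 TPM in Luc and 77.21 to 101.3 TPM in LucOS tumours (-0.63, limma adjusted p = 0.436). Slco1b2, a hepatocyte uptake transporter, was 451 to 551.6 TPM against 275.2 to 335.2 TPM (-0.66, limma adjusted p = 0.485), with SDs of 46.1 and 31 TPM. Mbl1, a lectin that starts the complement cascade, was 112.1 to 127.6 TPM against 48.88 to 88.67 TPM (-0.92, limma adjusted p = 0.461). These 3 lay without overlap (5.28% of all genes), which picking by p in these same tumours favours. Hamp2, a paralog of hepcidin, was 366.4 to 633.6 TPM against 175.2 to 278.4 TPM (-1.04, limma adjusted p = 0.677).

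Idi1, an enzyme of cholesterol synthesis, was 171.5 to 221.2 TPM in Luc and 112.4 to 150.3 TPM in LucOS tumours, without overlap (-0.49, limma adjusted p = 0.677). The cholesterol synthesis and lipogenesis list of 29 kept genes had a median of 0.05, and -0.13 without LucOS Aoah 3. Igf2, an imprinted fetal growth factor, was 463.9 to 952.6 TPM against 1120 to 1399 TPM (0.91, limma adjusted p = 0.652). Odc1, a MYC target that starts polyamine synthesis, was 219.7 to 342 TPM against 97.43 to 208.8 TPM (-0.91, limma adjusted p = 0.341). The medians of the MYC target and cell cycle lists were -0.06 and -0.02.

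Stromal genes were mixed. Tagln, an actin-binding protein of contractile cells, was 28.9, 22.86, 32.55 and 26.02 TPM in Luc and 11.69, 9.09 and 12.11 TPM in LucOS tumours (-1.25, SE 0.34, limma adjusted p = 0.317). Col1a1 and Col1a2, the collagen I chains, overlapped, with differences of 0.96 and 0.81 (limma adjusted p = 0.671 and 0.672). The list of 16 kept genes had a median of 0.08 (-0.14 without LucOS Aoah 3), with 0 passing in limma. At an unadjusted p under 0.05 in limma, 3 were higher (2.73% of all genes) and 2 lower (4.28% of all genes). Clec4g, a lectin of sinusoidal endothelium, was 8.85 to 13.89 TPM against 1.75 to 4.37 TPM (-1.54, limma adjusted p = 0.523), while the endothelial list of 14 had a median of -0.13, and -0.39 without LucOS Aoah 3.

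Further genes among these 15 were outside these groups. Akap13, an anchoring protein, was 0.87, 2.06, 0.97 and 0.81 TPM in Luc and 2.91, 4.6 and 6.76 TPM in LucOS tumours (1.38, SE 0.30, limma adjusted p = 0.142). Malat1, a nuclear noncoding RNA, was 24.38 to 56.96 TPM against 79.85 to 290.3 TPM (1.90, limma adjusted p = 0.164). Fyb, an adaptor of T cells and myeloid cells, was 14.49 to 19.45 TPM against 25.46 to 34.41 TPM (0.82, limma adjusted p = 0.168). Plaat3, Klrh1, Dhx16 and Or2v1 were higher by 0.92 to 1.29 with limma adjusted p of 0.275 to 0.317. All 15 lay without overlap (2.2% of all genes), which picking by p in these same tumours favours.

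**Figure D4:**
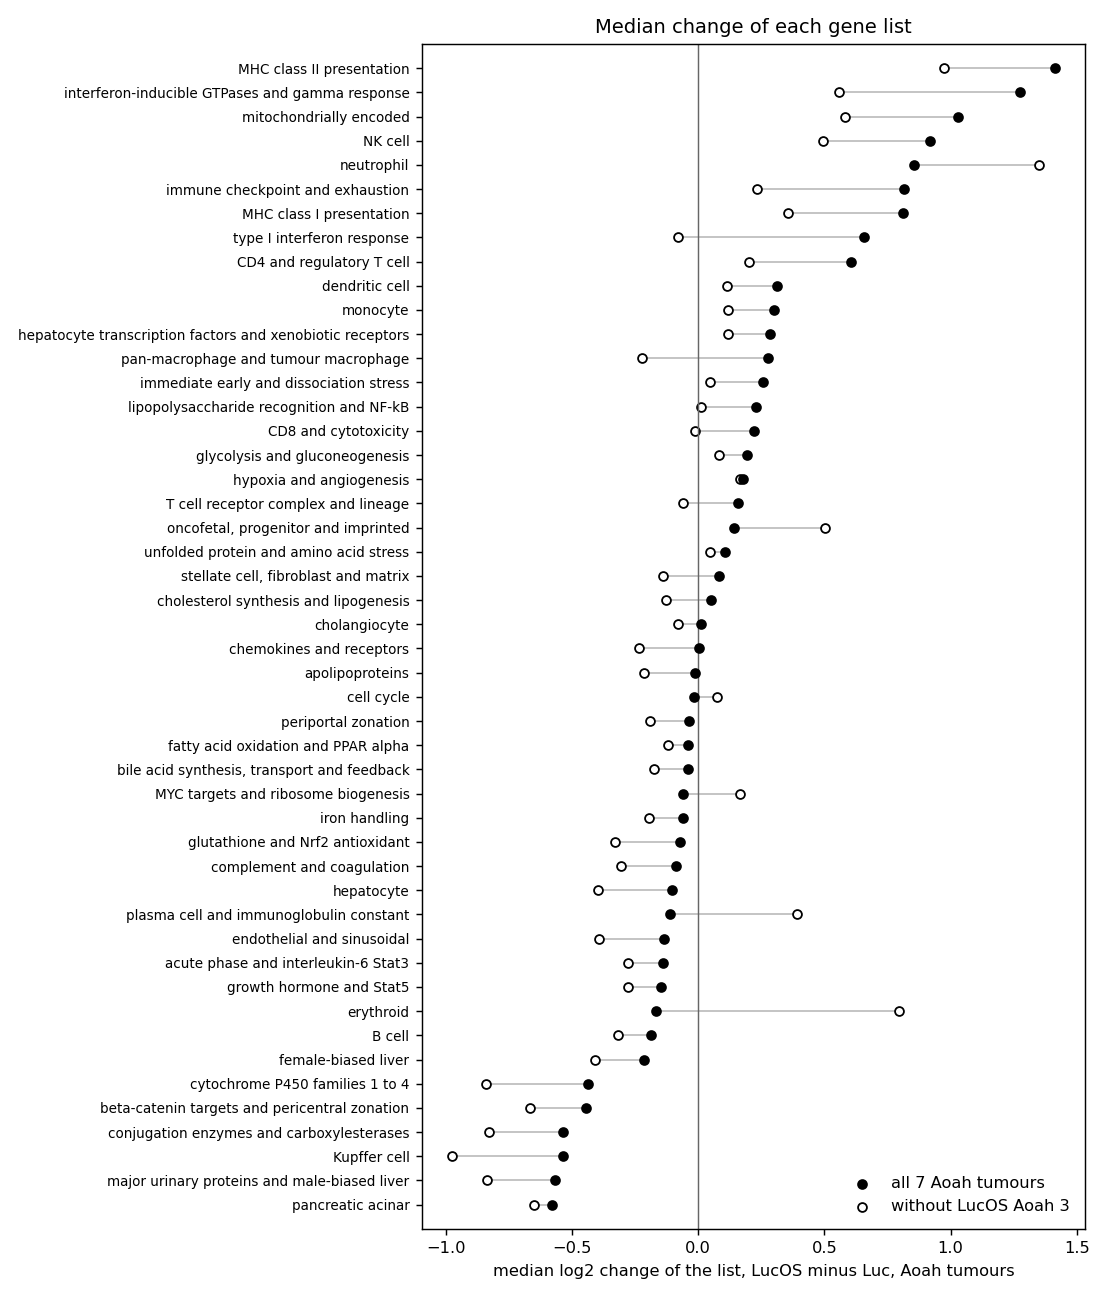
Median log2 difference, LucOS minus Luc, of the kept members of 48 gene lists in Aoah tumours (horizontal axis), with all 7 tumours (filled) and without LucOS Aoah 3 (open). MHC class II, interferon gamma and mitochondrially encoded lists have medians above 1 with all 7 and of 0.98, 0.56 and 0.58 without that tumour.

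Whether the antigen comparison differed from that in vector tumours was tested as an interaction in the same fit, over tumours that the 2 comparisons do not share. In vector tumours limma called 0 genes (1918 at an unadjusted p under 0.05, 14.2%, of which 425 were higher, 3.16%, and 1493 lower, 11.1%), and the median of all genes was -0.25. The interaction called 1 of 13466 genes (0.00743%; 1378 or 10.2% at an unadjusted p under 0.05, with 916 or 6.8% positive and 462 or 3.43% negative), and it was Mup13. In vector tumours Mup13 was 1.4, 0, 0.14 and 1.71 TPM in Luc and 2.65, 2.99 and 0.39 TPM in LucOS, all below every Luc Aoah tumour. The difference between the comparisons was -5.05 (SE 0.68, limma adjusted p = 0.0315). This call was fragile: leaving out any of 11 of the 14 tumours ended it, and its adjusted p ranged from 0.00958 to 0.407 over 23 alternatives.

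Mup3 was also opposed, at 64.44, 39.45, 63.36 and 112.4 TPM in Luc and 186.1, 222.4 and 97.27 TPM in LucOS vector tumours, and the difference of -2.94 did not pass (limma adjusted p = 0.350). Serpina7, thyroxine-binding globulin, was lower in LucOS with Aoah, at 66.84 to 75.23 TPM against 79.74 to 125.2 TPM, and higher with vector, at 178.2 to 386.9 TPM against 89.63 to 110.5 TPM (difference -1.82, limma adjusted p = 0.350). Nat8f1, an acetyltransferase, was 79.98 to 90.23 TPM in LucOS and 117.6 to 174.9 TPM in Luc with Aoah, and 77.02 to 81.05 against 42.47 to 64.93 TPM with vector (-1.28, limma adjusted p = 0.372).

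In the other direction Sox9, a factor of biliary and progenitor cells, was 0.17 to 1 TPM in Luc and 0.24 to 0.56 TPM in LucOS tumours with Aoah, but 3.24 to 9.85 TPM in Luc and 0.35 to 1.57 TPM in LucOS tumours with vector (difference 2.01, limma adjusted p = 0.443). Apoa4, an apolipoprotein, overlapped with Aoah (191.3 to 340.3 against 213.5 to 294.9 TPM) and was lower in LucOS with vector (145.2 to 217.2 against 326.2 to 685.9 TPM; difference 1.49, limma adjusted p = 0.443). Akap13, Adcy2 and Bicc1 also stood among the 5 most positive by p, with the same adjusted p of 0.443, as did Etaa1os among the 5 most negative.

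Lists were placed side by side in the 2 comparisons. The interferon GTPase and gamma response list had medians of 1.27 with Aoah and 0.72 with vector, MHC class II 1.41 and 0.74, neutrophil 0.85 and 0.70, and the T cell list 0.16 and 0.39. The mitochondrially encoded list had 1.03 and -0.22, and the urinary protein and male-biased list -0.57 and 0.14. No member of these lists other than Mup13 passed the interaction, so the other differences between the comparisons did not pass the test.

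**Figure D5:**
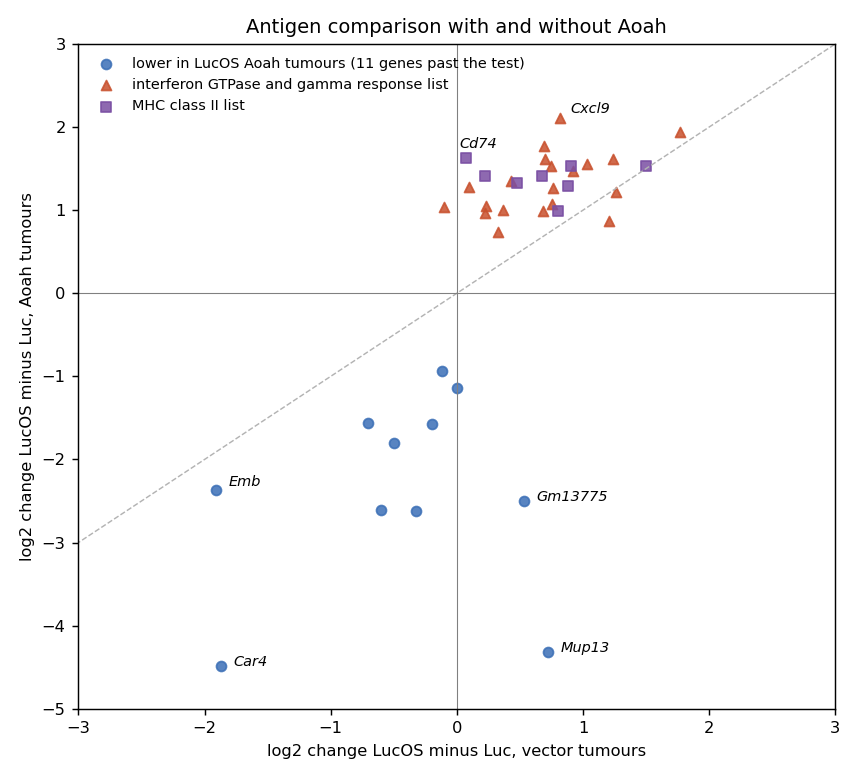
Log2 difference LucOS minus Luc in vector tumours (horizontal axis) against that in Aoah tumours (vertical axis), for the 11 genes that fell in Aoah tumours (circles), the kept interferon GTPase and gamma response genes (triangles) and the kept MHC class II genes (squares); the dashed line marks equal differences. Mup13 lies at 0.72 and -4.32, while Car4 and Emb, at -1.87 and -1.91 on the horizontal axis, are low in both comparisons.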

How the data were processed

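RNA was measured in 14 tumours. The deposited expression values are log2 of TPM + 1 per gene, which the authors gave for all tumours. RSEM, DESeq2 and the mm39 build are named per the submitters' processing notes, and the sources used here give no aligner. A second deposited table, named after MiXCR by the authors, holds clone and clonotype numbers, entropy, clonality and isotype shares, not scaled to depth; shares are given here as percent. RNA was captured by poly-T beads per the labels' protocols, and strandedness is not stated, so antisense and overlapping genes cannot be separated. No count was available, so no count test was run. Authors' tables of Aoah against vector were not used here, and 0 per-tumour columns were left out.

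TPM was recovered from the log2 values. Genes at 1 TPM or more in at least 3 tumours were kept (13466 of 29923 symbols). One limma fit (3.58.1, R 4.3.3; trend and robust) of log2(TPM + 1) covered all 14 tumours with a mean for each group, with Benjamini-Hochberg adjustment and a threshold of 0.05. The script was tested on simulated data. For the receptor measures, an exact permutation test, two-sided, was used (Python 3.11.15, scipy 1.17.1). Gene classes came from symbols, 91.7% of which matched an annotation. Lists are described by counts and medians with no list test.

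Genes named are Aoah, up to 15 per direction by size among those that passed and otherwise by p, leaving out predicted genes, pseudogenes and receptor segments, 5 per direction of the interaction, up to 4 members of each list by p, and the first 3 of a cell type list; Cidea, Ucp1, Xist, Gbp7, Tgtp1, H2-K1, Igha, Cxcr2, Elovl3, Mup11, Mup15, Mup17, Mup19 and Mup20 were chosen after their values were seen, as were the predicted genes. The members and the gene lists were chosen with earlier results of these data known. Alternatives were another pseudocount, filters, scalings, a replicate block, fewer tumours, and each tumour left out. A few items are not reported here.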

Additional observations from a re-analysis of the deposited data

Results flagged for a closer look

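Among 115 results looked at in the 4 Luc Aoah tumours, 8 had 1 tumour far from the other 3, and chance gives this in about 1 in 20 groups. Luc Aoah 2 held 39.7 TPM of Emb, while the other 3 held 11.19 to 13.88 TPM. Akap13 was 2.06 TPM in that tumour, and 0.81 to 0.97 TPM elsewhere. Luc Aoah 1 held 1.79 TPM of Apela, against 4.13 to 4.48 TPM. In Luc Aoah 3, Slc1a2 was 12.95 TPM against 24.57 to 27.4 TPM, and Igfbp1, an insulin-like growth factor binding protein, was 51.76 TPM against 101.7 to 108.1 TPM. In Luc Aoah 4, Tgtp1 was 116.3 TPM against 41.82 to 47.28 TPM. The same tumour held 1.34 TPM of Ctla4, a checkpoint receptor of T cells, against 0.4 to 0.47 TPM. Klrh1 was 0.36 TPM there and 0 TPM in the other 3. The antigen comparison of Mup13 differed between Aoah and vector tumours by -5.05 on the log2 scale, by the test of the difference itself (limma adjusted p = 0.0315).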

How the results depend on the processing

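The 11 genes called in Aoah tumours became 4 with a pseudocount of 0.1, 6 with no low filter (4 shared; the 2 higher ones, Gm43008 and Gm47324, had log2 differences of 0.37 and 0.06), 4 at 5 TPM or more, 27 after quantile normalization (10 shared, 1 higher), 3 after rescaling without mitochondrial and small noncoding genes, 2 in a fit of the 7 Aoah tumours and 5 without Luc Aoah 3 and LucOS Aoah 3, of which 2 were shared. Leaving out each tumour gave 1 to 10. In vector tumours the count of 0 became 4 with no filter and 2 in a fit of those 7 tumours, and 0 to 1 with each tumour left out. The interaction's 1 became 0 with a pseudocount of 0.1, after rescaling, without Luc Aoah 3 and LucOS Aoah 3 and without Luc vector 1 and 3; it was 2 with no filter and 0 to 2 with each tumour left out. The cause of these shifts was not tested, apart from the fewer tumours or genes in some. Replicate numbers come from the labels, which state no pairing. Residuals of same-numbered Aoah tumours correlated at 0.0881, -0.458 and -0.283, and those of unlike-numbered ones at -0.134 to 0.408. So few pairs cannot show whether the numbers pair tumours. With the replicate block limma called 0 genes in Aoah tumours and 0 in the interaction. Of the 48 lists, 25 had a positive median, and 14 did without Luc Aoah 3 and LucOS Aoah 3, where the median of all genes moved to -0.13. The difference in T cell receptor beta clones, 4.58, reversed to -14.5 with medians, -4.33 without Luc Aoah 2 and -19.8 without LucOS Aoah 3; over all left-out tumours it ran from -19.8 to 18.2. No gene among 108 changed direction over 1695 values. These 108 were picked largely by p in the same data and do not hold every gene named here. The check therefore says little of genes with small differences, such as Apoa4 (0.05 with all 7 tumours). In 11 of the values, 7 genes that did not pass in the first fit did pass, among them Ugt3a1 and Adipoq after quantile normalization. TPM keeps no depth, so how far depth limits low genes such as Lag3 is unknown.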

Other observations

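Erythroid and regulatory genes of hepatocytes are described here because the comparisons above do not cover them. The 6 kept erythroid genes had a median of -0.17 with all 7 tumours and 0.80 without LucOS Aoah 3, and their summed level was 648.15 to 1050.47 TPM in Luc and 147.65 to 1696.46 TPM in LucOS tumours. Hepatocyte transcription factors and xenobiotic receptors had a median of 0.28 (0.12 without LucOS Aoah 3), with 14 of 20 positive. The lipopolysaccharide recognition and NF-kB list, which belongs to the substrate of Aoah, had a median of 0.23 over 21 kept genes, 0.01 without LucOS Aoah 3. Limma called 0 members of these 3 lists, and 0 had an unadjusted p under 0.05.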
